A study of Mus musculus with 36 samples.

Results

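This report describes how the transcriptome of mouse fibroblasts under chemical reprogramming toward photoreceptors differed between day 8 and day 5 of treatment. The comparison used the 3 libraries labelled as day 8 intermediates against the 3 labelled as day 5 intermediates, 6 of the 33 libraries in the deposited expression table and of 36 samples listed for the study. Both groups came from embryonic fibroblasts of the Nrl-GFP strain, in which a green fluorescent protein reports the promoter of Nrl, a rod photoreceptor transcription factor. Both were kept in photoreceptor induction medium with a mix of 5 chemicals. The passage 2 fibroblasts (MEF, 3 libraries) and the reprogrammed cells taken at day 11 (CiPC, 3 libraries) share the strain, and are cited below only for their levels. The labels do not name the chemicals. In the published protocol they are valproic acid, CHIR99021, RepSox, forskolin and IWR1, and which of them were present by day 5 or day 8 is not given in the sources used here. The labels state that cells were sorted by reporter expression and that each sample held 80 ng of total RNA, but not which reporter fraction the intermediates were. Nothing in the labels says that the 3 libraries of a day came from separate cultures, so the p-values measure the spread between these libraries, which may be technical.

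Reprogramming with small molecules asks fibroblasts to leave their own expression program without added transcription factor genes. The chemicals in such mixes act on histone deacetylases, Wnt, TGF-beta and cyclic AMP signalling. Fibroblasts are contractile, matrix-secreting cells. They can also be driven into adipocytes, which store triglyceride in lipid droplets. Brown and beige adipocytes in addition burn fatty acids in mitochondria whose proton gradient is released as heat by the uncoupling protein UCP1. Rod photoreceptors are set apart by the transcription factors Nrl, Crx, Otx2 and Nr2e3 and by phototransduction genes such as Sag.

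Values are CPM, read counts scaled to library size, as the authors normalised them. Whether gene length entered the scaling is not given in the sources used here. The columns of the table summed to between 947096 and 955558 at day 5 and between 1005445 and 1010087 at day 8. The read depth behind a value is unknown. Mitochondrially encoded genes made up 4.46% to 4.91% of a day 5 column and 5.40% to 7.06% of a day 8 column, and the 10 genes with the largest shares made up 10.3% to 10.5% and 12.9% to 13.3%. Neither of these shares, nor the column sum, can pass a test with 3 libraries against 3, where an exact two-sided permutation test can reach no lower than p = 0.1, the value all 3 gave. Libraries of the same day correlated across genes at r of 0.991 to 0.996, and libraries of different days at 0.948 to 0.958, on log2(CPM + 1). The day 8 libraries differed among themselves along GC content. The correlation of a library's deviation from its day's mean with a gene's GC content was -0.495 in day 8 replicate 2 and 0.493 in day 8 replicate 3, over 13133 genes. The part of this spread among libraries in the results was not tested. An alternative removed the trend of the change between days with GC content and length. It left the differences among libraries of a day, and the standard errors, in place.

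Of 15289 genes in the table, 13259 reached 1 CPM in at least 3 of the 6 libraries and were tested with limma on log2(CPM + 1). Fold changes on this scale understate the change of genes with low values. A gene is called here when its Benjamini-Hochberg adjusted p was below 0.05 and its fold at least 2. At day 8, 478 genes were called higher, 3.61% of those tested, and 399 were called lower, 3.01%, which makes 877 genes or 6.61% in all. The change reached at least 4-fold for 111 of the higher and 33 of the lower genes, and at least 8-fold for 47 and 5. At any fold, 3400 genes (25.6%) passed the adjusted p upward and 3175 (23.9%) downward. The 3 libraries of each day did not overlap for 30.3% of genes with day 8 higher and for 28.4% with day 8 lower, so a lack of overlap alone marks no gene out here. The median log2 change over all genes tested was 0.00206. Of the called genes, 16 had values equal to those of another gene in all 12 libraries of MEF, day 5, day 8 and CiPC, and are not independent.

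**Figure D1:**
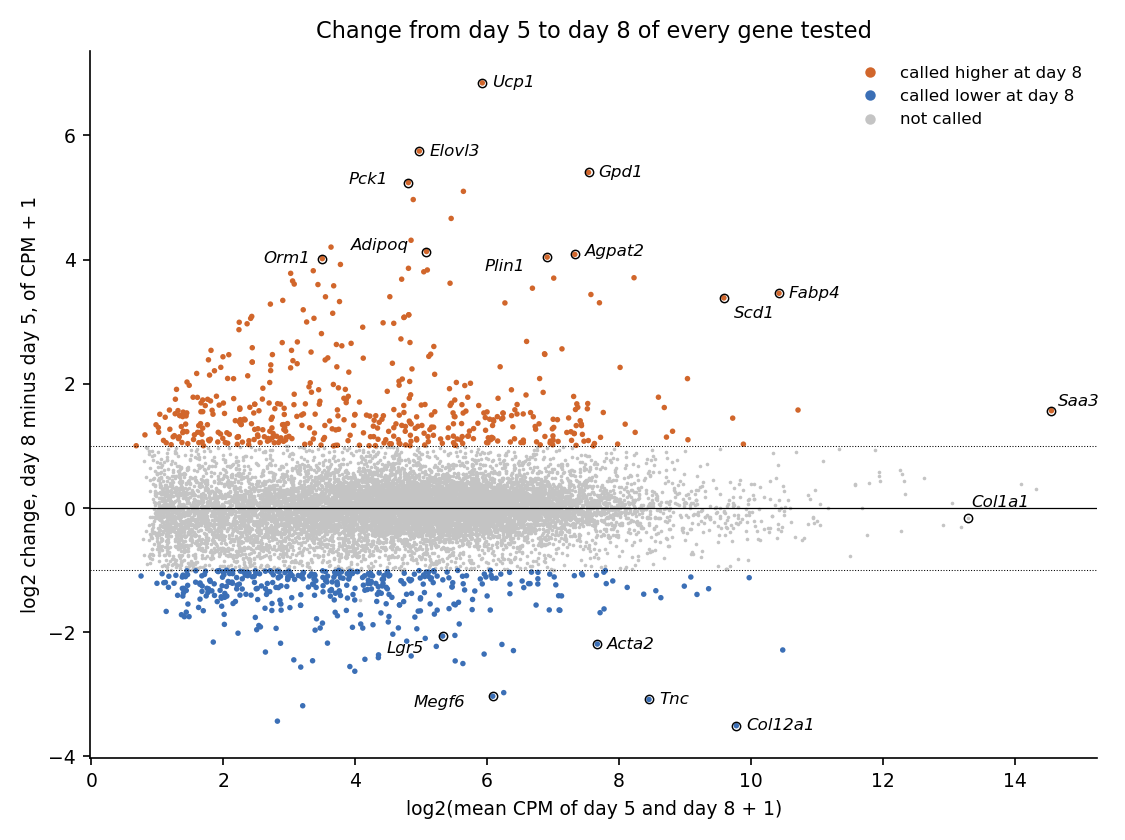
Each point is 1 of the 13259 genes tested. The x axis is the log2 of the mean CPM over both days plus 1, the y axis is the log2 change of CPM + 1 from day 5 to day 8, dotted lines mark a 2-fold change, and orange and blue points are the 478 genes called higher and the 399 called lower. Genes of fat storage and heat production (Ucp1, Elovl3, Gpd1, Fabp4, Scd1) lie at the top and matrix and contractile genes (Col12a1, Tnc, Acta2) at the bottom.

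The 12 genes that rose most were mainly genes of fat cells. These, and the 12 that fell most, were picked only from called genes whose libraries did not overlap between days. Ucp1, which uncouples mitochondrial respiration from ATP synthesis in brown and beige fat, was at 0.0749, 0.0757 and 0 CPM in the day 5 libraries and at 118, 123 and 118 CPM in the day 8 libraries. It was near the bottom of the measurable range in all 3 day 5 libraries and far above it in all 3 of day 8. Its log2 change of CPM + 1 was 6.85 ± 0.087 (SE, n = 3 per day, adjusted p = 1.42e-10). The gene lies at chr8:83290352-83298452 of GRCm38, on the plus strand. Elovl3, a fatty acid elongase induced in brown fat by cold, went from 0.0761, 0.345 and 0.0411 CPM to 60.1, 64.8 and 57.1 CPM, a log2 change of 5.75 ± 0.12. Pck1, which supplies glycerol for triglyceride in fat cells and glucose in liver, stood at 0.277, 0.519 and 0.548 CPM at day 5 and 52.2, 53.1 and 55.3 CPM at day 8. The groups were far apart, with a log2 change of 5.24 ± 0.11. Gpd1, which makes glycerol 3-phosphate, rose from 7.48, 6.97 and 8.19 CPM to 377, 311 and 400.0 CPM, a log2 change of 5.41 ± 0.096. Adipoq, the gene of the fat cell hormone adiponectin (chr16:23146536-23158028), rose from 3.10, 2.38 and 2.53 CPM to 63.2, 64.3 and 61.7 CPM, a log2 change of 4.13 ± 0.095 (adjusted p = 2.28e-09). Every day 8 library of Adipoq was above every day 5 library.

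The other 7 of the 12 rose by log2 changes between 4.02 and 5.10. Agpat2 and Plin1 belong to triglyceride synthesis and to the lipid droplet coat. Thrsp is a lipogenic gene of liver and fat, Fa2h hydroxylates fatty acids, and Adtrp cleaves hydroxy fatty acid esters. Orm1 encodes an acute phase protein of plasma. Mup7 is 1 of a cluster of near-identical major urinary protein genes, among which the authors' read assignment can split reads, so its rise of 5.10 is uncertain as to the copy.

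Promoter sequences of 4 genes that rose and of Acta2, a gene that fell, are shown. These genes were chosen as examples of the opposed groups and not by rank. Acta2 is not among the 12 that fell most. The sequences come from RefSeq on GRCm38.p6 and run 5′ to 3′ on the gene's strand, from 250 bases before the start site to 50 after it. Capitals mark matches, on either strand, to the motifs searched. These were AGGTCA, a core element bound by nuclear receptors such as PPARG, TGACGTCA, bound by CREB, and TTGCGCAA, bound by C/EBP factors. Next came TATAAA, the usual form of the TATA box, and its variant form TATATA. The last were the element of TCF factors in Wnt signalling, ATCAAAG, and the CArG box of SRF. No match printed overlaps another.
Ucp1, chr8:83290098-83290397, plus strand: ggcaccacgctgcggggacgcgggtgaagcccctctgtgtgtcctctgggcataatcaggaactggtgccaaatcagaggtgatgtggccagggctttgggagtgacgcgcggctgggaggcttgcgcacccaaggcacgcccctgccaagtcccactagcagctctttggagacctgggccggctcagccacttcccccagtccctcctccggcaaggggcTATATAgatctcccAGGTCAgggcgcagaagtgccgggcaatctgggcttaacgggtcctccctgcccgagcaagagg
Adipoq, chr16:23146286-23146585, plus strand: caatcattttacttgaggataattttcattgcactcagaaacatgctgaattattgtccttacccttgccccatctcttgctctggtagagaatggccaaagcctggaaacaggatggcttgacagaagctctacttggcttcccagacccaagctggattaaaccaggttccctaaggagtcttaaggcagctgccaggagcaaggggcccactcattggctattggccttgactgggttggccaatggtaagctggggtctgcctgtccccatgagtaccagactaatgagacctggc
Plin1, chr7:79732727-79733026, minus strand: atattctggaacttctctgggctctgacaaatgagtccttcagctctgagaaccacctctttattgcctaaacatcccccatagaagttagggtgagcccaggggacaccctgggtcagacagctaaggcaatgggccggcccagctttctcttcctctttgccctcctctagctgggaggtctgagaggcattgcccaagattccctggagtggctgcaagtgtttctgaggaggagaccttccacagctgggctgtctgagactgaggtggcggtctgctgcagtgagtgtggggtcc
Pck1, chr2:173152823-173153122, plus strand: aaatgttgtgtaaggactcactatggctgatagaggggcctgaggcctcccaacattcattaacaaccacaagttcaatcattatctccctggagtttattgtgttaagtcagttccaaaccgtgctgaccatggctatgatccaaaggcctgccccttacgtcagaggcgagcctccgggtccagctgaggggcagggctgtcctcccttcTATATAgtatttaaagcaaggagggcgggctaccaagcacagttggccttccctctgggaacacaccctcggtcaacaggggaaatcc
Acta2, chr19:34255324-34255623, minus strand: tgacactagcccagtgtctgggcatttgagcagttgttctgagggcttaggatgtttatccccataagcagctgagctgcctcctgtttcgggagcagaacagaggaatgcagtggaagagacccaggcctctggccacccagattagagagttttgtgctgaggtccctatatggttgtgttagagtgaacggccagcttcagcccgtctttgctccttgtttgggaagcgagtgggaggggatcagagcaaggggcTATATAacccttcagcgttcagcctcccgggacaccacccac
The Ucp1 window held TATATA from 28 bases before the start site and AGGTCA from 14 before it. The Pck1 window held TATATA from 38 bases before the start site. In the Acta2 window TATATA began 8 bases after the start site used, so not upstream of it. The Adipoq and Plin1 windows held none of the motifs. Over all windows of this length in the RefSeq table, 16.3% held AGGTCA and 5.67% held TATATA. Among the genes tested the shares were 12.3% and 2.53%. They were 20.6% and 6.41% for windows of genes called higher and 10.8% and 2.76% for windows of genes called lower. These are shares of windows, 437 for 344 genes called higher and 399 for 289 called lower. In the order tested, higher and lower, TGACGTCA was in 2.98%, 1.6% and 1.5%. The CArG box was in 1.31%, 3.2% and 2.76%, and TATAAA in 7.3%, 11.2% and 10.8%. ATCAAAG was in 2.56%, 2.29% and 3.26%, and TTGCGCAA in 0.307%, 0.686% and 0.251%. The median GC content of these windows also differed, at 60.7% for genes tested, 57.3% for genes called higher and 62.0% for genes called lower. A match is a description of letters and not of a bound site.

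**Figure D2:**
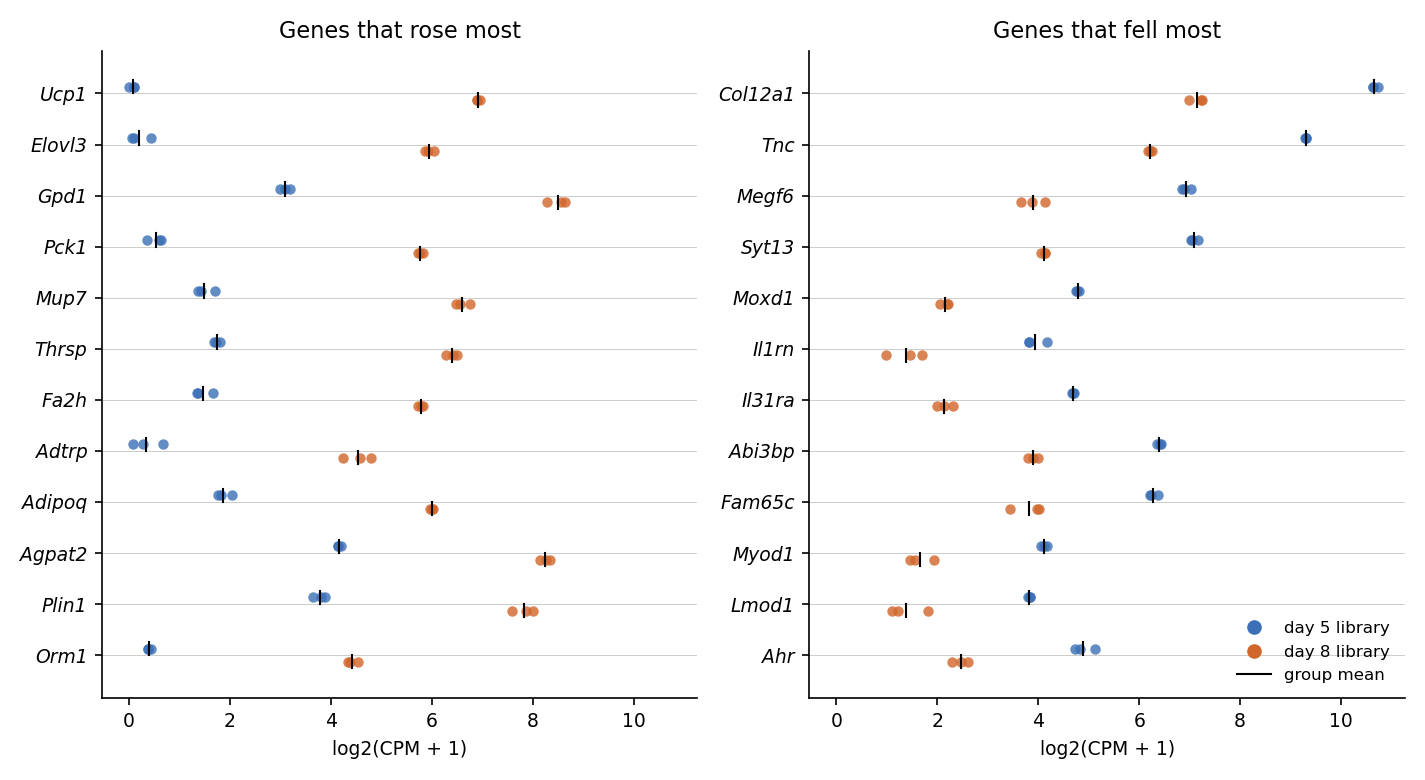
Each point is 1 library's log2(CPM + 1), with day 5 in blue and day 8 in orange and a black tick at the mean of the 3 libraries. The left panel holds the 12 genes that rose most and the right panel the 12 that fell most. All 24 were picked from genes whose days did not overlap, so their separation was set by that choice.

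Of 11 adipocyte markers tested, 9 were called higher and none lower, and all 11 passed the adjusted p upward. Their median log2 change was 3.46 against 0.00206 for all genes. The list was chosen with earlier results of these data known, so this comparison is a description and not an independent test. The summed level of the markers was 1536 to 1563 CPM in the day 5 libraries and 5512 to 5973 CPM in the day 8 libraries. Fabp4, the fatty acid carrier of fat cells, rose from 236, 224 and 225 CPM to 2388, 2760.1 and 2431 CPM, and the days were far apart. Plin1, which coats the lipid droplet and gates lipolysis, rose from 12.9, 11.5 and 13.8 CPM to 232, 191 and 255 CPM. Plin4, Cidec and Retn rose by 3.69 ± 0.098, 3.66 ± 0.12 and 3.60 ± 0.14 on the log2 scale. Cidec fuses lipid droplets, and Retn encodes the hormone resistin. Pparg, the nuclear receptor that directs fat cell formation, was measured at 22.1, 19.1 and 22.2 CPM and 31.2, 32.8 and 30.3 CPM. Its log2 change of 0.55 ± 0.081 passed the adjusted p (0.000411) but not the 2-fold limit, so it was not called. The labels call both groups photoreceptor intermediates, and of the cell type lists the adipocyte markers had the largest median change between the days. In bulk libraries, more cells of a type and more RNA of its genes per cell cannot be told apart.

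Many genes that build and break down stored fat rose. Of 17 genes of triglyceride assembly tested, 8 were called higher and none lower (median log2 change 0.69). Dgat2, which makes triglyceride in its last step, rose from 17.5, 17.8 and 16.8 CPM to 243, 213 and 259.7 CPM. Agpat2, an acyltransferase upstream of it, rose from 16.6, 17.5 and 16.6 CPM to 305, 282 and 322 CPM. Neither gene's days overlapped. Of 15 lipid droplet and lipolysis genes, 11 were called higher and none lower (median 2.67), among them Mgll, the monoglyceride lipase, at 16.6, 14.7 and 14.6 CPM and then 193, 173 and 202 CPM. These 2 lists, and those of the TCA cycle, peroxisome, adipogenic regulators, adrenergic and cyclic AMP inputs and collagen chains, were chosen after the data had been seen. The other lists were chosen with earlier results of these data known.

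Of 14 fatty acid synthesis genes, 6 were called higher and none lower, with a median of 0.62. Scd1, which puts the double bond into stored fatty acids, rose from 134, 136 and 132 CPM to 1423, 1448 and 1353 CPM. The other called members were Dgat2, Dgat1, Acacb, Mlxipl, a glucose-sensing transcription factor, and Me1, malic enzyme. Dgat2 is also counted in the triglyceride list. Plin1, Plin4 and Cidec are counted both as adipocyte markers and as lipid droplet genes. Cidea is counted in the lipid droplet list and in that of heat production below. The counts of these lists are therefore not independent of each other. None of 20 cholesterol synthesis genes was called in either direction by limma at 2-fold, although 13 passed the adjusted p upward and 1 downward. Hmgcs1, which makes HMG-CoA for this path, was at 161, 155 and 165 CPM and 294, 289 and 266 CPM.

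Most listed genes of fatty acid oxidation and heat production rose too. Of 22 genes listed, 16 were called higher and none lower, all 22 passed the adjusted p upward, and the median log2 change was 1.47. Cidea, a lipid droplet protein typical of brown fat, rose from 0.561, 0.282 and 0.258 CPM to 17.6, 19.2 and 17.9 CPM. Cox8b and Cox7a1, subunit forms of cytochrome oxidase used by brown fat and muscle, rose by 3.28 ± 0.17 and 3.00 ± 0.10 on the log2 scale. The day 5 libraries of Cox8b lay between 0.134 and 0.266 CPM and those of day 8 between 9.24 and 14.2 CPM. Dio2, which activates thyroid hormone in brown fat, was at 13.8, 13.5 and 11.8 CPM and 25.6, 24.9 and 21.6 CPM and did not reach 2-fold.

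**Figure D3:**
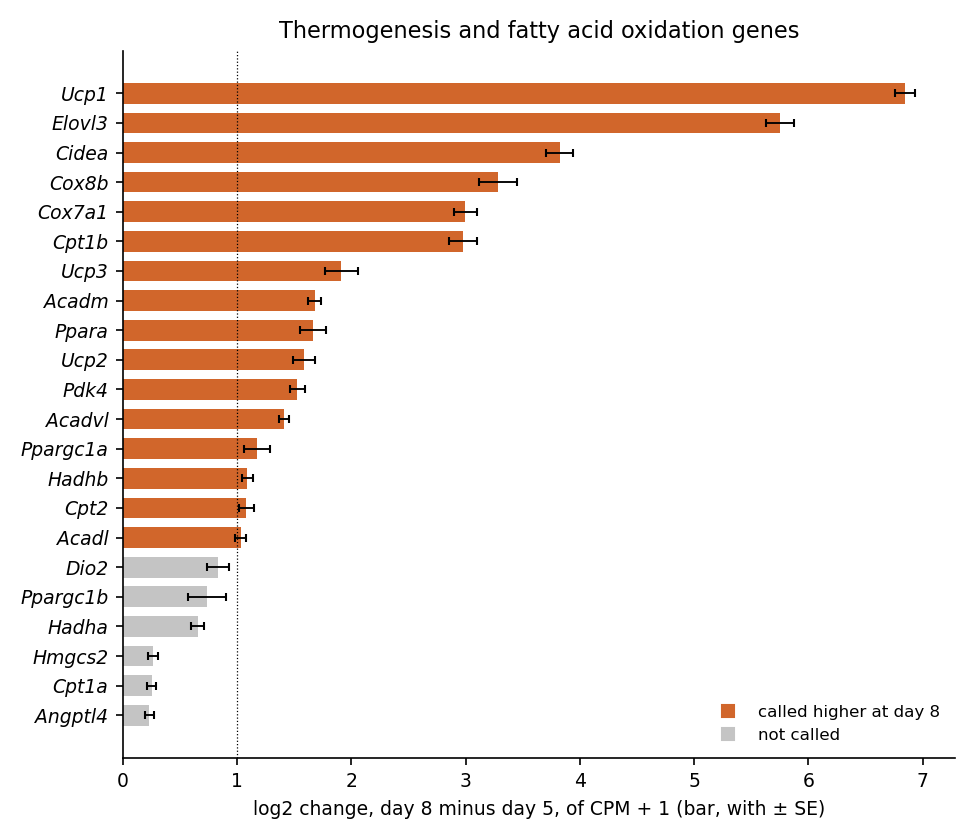
Bars are the log2 change of CPM + 1 from day 5 to day 8 of the 22 thermogenesis and fatty acid oxidation genes, with the standard error of the limma fit over 3 libraries per day. The dotted line marks 2-fold, the 16 orange bars are called, and all 22 bars lie above 0, from Ucp1 at 6.85 down to Angptl4 at 0.23.

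Of 21 TCA cycle genes, 6 were called higher, none lower, and 20 passed the adjusted p upward, with a median of 0.74. Idh3a, a subunit of the isocitrate dehydrogenase of mitochondria, rose from 75.3, 65.7 and 69.4 CPM to 249, 255 and 234 CPM, with every day 8 library above every day 5 library. Pdhb, Dlat and Sucla2 rose by between 1.07 and 1.43. Sucla2 stood at 0.90 and was not called with GC content and length trends removed. Of 22 peroxisome genes, 6 were called higher and none lower, 13 passed the adjusted p upward and 1 downward, and the median was 0.39. The largest change was that of Acaa1b, a thiolase of peroxisomal fatty acid oxidation, at 4.55, 4.91 and 4.50 CPM and then 47.3, 39.2 and 53.7 CPM.

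Most respiratory chain genes passed the adjusted p upward but fell short of 2-fold. Over all genes tested, 3.61% were called higher and 25.6% passed the adjusted p upward. Of 22 encoded in the nucleus, 2 were called higher (Uqcrfs1 and Cyc1, both of complex III) while 21 passed the adjusted p upward, with a median of 0.62. Of 13 encoded in mitochondria, 1 was called higher (mt-Nd3) and 12 passed the adjusted p upward, with a median of 0.55. Of 21 glycolysis genes, 1 was called higher (Pfkfb3, which makes the allosteric activator of phosphofructokinase, 1.67 ± 0.053) and 1 lower (Slc16a3, a lactate exporter, -1.09 ± 0.12). All 3 respiratory chain calls lay close to the 2-fold limit, at 1.05 ± 0.063, 1.01 ± 0.045 and 1.14 ± 0.072. With trends in GC content and length removed, Uqcrfs1 and mt-Nd3 stood at 0.84 and 0.74, and Slc16a3 at -0.95, and none of them was called. Uqcrfs1 also lost its call without day 5 replicate 3 (0.99), and Cyc1 without day 5 replicate 1 or day 8 replicate 3 (0.99 each). Under quantile normalisation Uqcrfs1 stood at 0.99 and Cyc1 at 0.96, and neither was called. The mitochondrial share of the column was higher in the day 8 libraries, as given above, and its part in these changes was not tested. With mitochondrial genes and Saa3 left out of the scaling, an alternative chosen after the data had been seen, Cyc1 stood at 0.99.

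The regulators of fat cell identity were mixed. Of 26 listed, 4 were called higher and 1 lower, 7 passed the adjusted p upward and 11 downward, and the median was -0.17. Cebpa, the C/EBP factor that maintains the mature fat cell, rose from 40.0, 42.4 and 42.0 CPM to 178, 179 and 180.5 CPM. Its 3 day 8 libraries lay close together and far above day 5. Ppara, a fatty acid-sensing receptor, rose by 1.66 ± 0.11, and Lhx8 and Esrrg, both reported in brown fat, by 1.87 ± 0.11 and 1.51 ± 0.26. Zic1, a marker of classical brown rather than beige fat in mouse, fell from 42.9, 58.0 and 36.3 CPM to 16.7, 12.4 and 18.4 CPM. Prdm16, a factor of brown fat commitment, was at 11.3, 12 and 6.58 CPM and 7.79, 6.93 and 9.48 CPM. The days overlapped, and it did not pass (adjusted p = 0.335). Ebf2, another such factor, was at 3.23, 3.31 and 3.24 CPM and 2.46, 2.90 and 2.77 CPM and did not pass either (adjusted p = 0.163).

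Among cyclic AMP and CREB targets, 3 of 15 were called higher and 1 lower. Ppargc1a, the coactivator that drives mitochondrial genes, rose from 18.8, 25.4 and 20.3 CPM to 51.7, 52.7 and 43.9 CPM. Fos and Dusp1, immediate early genes, rose by 1.47 ± 0.065 and 1.42 ± 0.066, and Fosl2 fell, with a log2 change of -1.22 ± 0.057. The median of the list was 0.047 and changed sign without day 8 replicate 1, to -0.039. Of 13 adrenergic and cyclic AMP input genes, Prkar2b, a regulatory subunit of protein kinase A, was the only one called, at 2.47 ± 0.065. Adrb3, the beta adrenergic receptor of rodent fat cells, was at 0.960, 0.849 and 1.32 CPM and 0.743, 0.687 and 1.05 CPM and was not tested.

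Secreted acute phase and complement genes were prominent among the rises. Of 16 tested, 7 were called higher and none lower, 12 passed the adjusted p upward and 2 downward, and the median was 0.90. Saa3, a serum amyloid of fat and inflamed tissue, went from 12314, 12052 and 12172 CPM to 33952, 37592 and 36867 CPM. The days did not overlap, with a log2 change of 1.57 ± 0.062. It made up 1.26% to 1.29% of a day 5 column and 3.36% to 3.74% of a day 8 column. Under quantile normalisation its change was 0.76 and it was not called. C3, the central complement component, rose from 826, 834 and 868 CPM to 2497, 2684 and 2383 CPM, and Cfb, factor B, by 2.33 ± 0.086. Lcn2, an iron-scavenging lipocalin, rose by 2.15 ± 0.071.

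Some genes of antigen presentation and of the interferon response rose as well. H2-K1 and H2-D1, classical MHC class I genes, rose by 1.62 ± 0.057 and 1.60 ± 0.050. They are close paralogs, so reads may have been shared between them. With Nlrc5, their transcriptional activator, 3 of 10 MHC genes were called higher and none lower (median 0.67). Nlrc5 lost its call without day 5 replicate 2 (0.95). Of 17 interferon-stimulated genes, 3 were called higher (Oasl2, Oas1a and Bst2), none lower, and 14 passed the adjusted p upward. Bst2 lost its call without day 5 replicate 1, day 5 replicate 3 or day 8 replicate 3 (0.99, 0.99 and 0.96). It also lost it with GC content and length trends removed (0.84), under quantile normalisation (0.96) and in the scaling without mitochondrial genes and Saa3 (0.998). Oas1a lost its call with the GC content and length trends removed (0.99). Of 23 NF-kB targets, none was called higher, 1 was called lower (Cxcl5, a neutrophil chemokine, 99.7, 98.7 and 99.5 CPM and then 31.1, 32.5 and 29.9 CPM), and 15 passed the adjusted p downward.

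**Figure D4:**
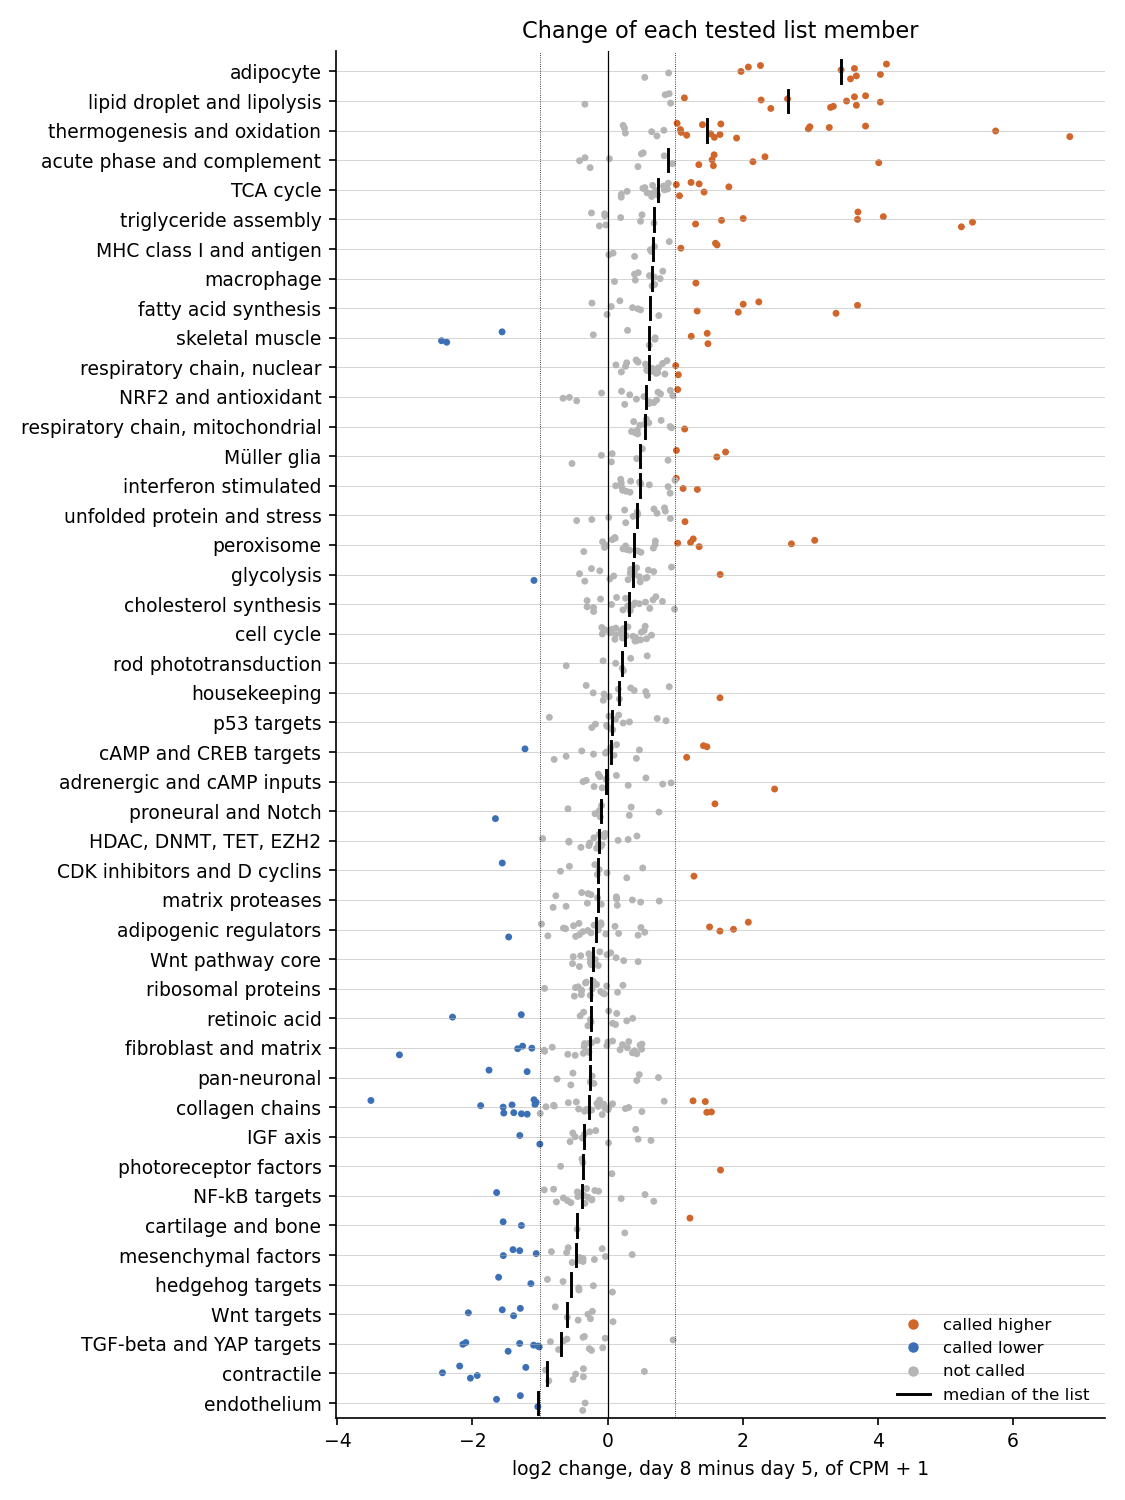
Each point is 1 tested member of a gene list at its log2 change of CPM + 1 from day 5 to day 8, orange where called higher, blue where called lower and grey where not called, with a black tick at the median of the list. Lists with at least 5 tested members are shown in the order of their medians, from adipocyte markers at 3.46 to endothelial markers at -1.03.

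The genes that fell most were led by matrix genes. Col12a1, a collagen that sits on the surface of fibrils, went from 1579, 1692 and 1578 CPM to 151, 126 and 148 CPM, a log2 change of -3.50 ± 0.070 (SE, n = 3 per day, adjusted p = 1.08e-09). Tnc, tenascin C of remodelling and wounded tissue, went from 623, 629 and 629.9 CPM to 73.4, 74.9 and 71.3 CPM, a log2 change of -3.08 ± 0.043. In both genes the 3 libraries of each day lay close together and the days far apart. Also among the 12 were Abi3bp, a matrix-bound protein, Megf6, Syt13, Moxd1, Fam65c, Il31ra, Il1rn, which encodes the antagonist of the interleukin 1 receptor, Ahr, the aryl hydrocarbon receptor, Myod1 and Lmod1. Their log2 changes lay between -3.03 and -2.44.

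The main fibrillar collagens were not called. Col1a1 was at 9925, 11713 and 9957 CPM at day 5 and 9806, 7409 and 11525 CPM at day 8. The days overlapped, and its log2 change of -0.16 ± 0.14 did not pass (adjusted p = 0.387). Col1a2 and Col3a1, its partner chain and the chain of type III collagen, had log2 changes of 0.07 ± 0.077 and 0.31 ± 0.062. Of 41 collagen chains, 11 were called lower and 4 higher, with a median of -0.27. The 4 that rose were Col6a5, Col6a6 and Col15a1, chains of the pericellular matrix and basement membrane zone, and Col13a1, a transmembrane collagen. Col15a1 rose from 444, 447 and 469.6 CPM to 1269, 1251 and 1196 CPM. Of 30 fibroblast and matrix genes, 4 were called lower (Tnc, Lox, Fbln1 and Fstl1) and none higher. Lox, the enzyme that cross-links collagen, was at 545, 539 and 534 CPM and then 216, 215 and 211 CPM. Defining fibroblast markers stayed high on both days. Pdgfra was at 1178, 1157 and 1203 CPM and 967, 976 and 947 CPM. Thy1 was at 339.7, 360.0 and 361 CPM and 228, 231 and 246 CPM. Both were lower at day 8 by less than 2-fold and were not called.

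Contractile genes of the myofibroblast were among the falls. Of 12 tested, 5 were called lower and none higher, 11 passed the adjusted p downward and 1 upward, and the median was -0.89. Acta2, smooth muscle actin, went from 322, 335 and 344 CPM to 71.1, 70.5 and 75.6 CPM, with no overlap and a log2 change of -2.19 ± 0.050 (adjusted p = 2.21e-09). Tagln and Myl9, which bind and move actin filaments, changed by -2.03 ± 0.14 and -1.93 ± 0.13. Of 18 targets of TGF-beta and of the mechanosensitive factor YAP, 7 were called lower and none higher (median -0.69). Inhba, which encodes the activin A subunit, went from 42.9, 45.5 and 43.2 CPM to 9.43, 9.12 and 8.93 CPM. Id3, an inhibitor of helix-loop-helix factors and a target of BMP signals, went from 51.7, 59.7 and 47.9 CPM to 12.3, 8.78 and 14.3 CPM. Neither overlapped between days. Of 16 mesenchymal transcription factors, 4 were called lower (Snai1, Osr1, Osr2 and Runx1), none higher, and 13 passed the adjusted p downward. Runx1 lost its call without day 8 replicate 1 (-0.99).

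Several targets of canonical Wnt signalling fell. Of 11 tested, 4 were called lower, none higher, and 8 passed the adjusted p downward, with a median of -0.60. Axin2, a feedback inhibitor that serves as a readout of the pathway, was at 21.1, 21.5 and 22.2 CPM and then 8.52, 6.24 and 10.4 CPM, a log2 change of -1.29 ± 0.15 (adjusted p = 7.78e-05). The day 8 libraries were below those of day 5 and spread wider among themselves. Lgr5, a receptor that amplifies Wnt signals, fell from 66.0, 60.2 and 65.0 CPM to 16.4, 13.4 and 13.9 CPM, and Nkd1, another feedback inhibitor, changed by -1.39 ± 0.13. Ccnd1, cyclin D1, went from 66.3, 71.4 and 64.4 CPM to 19.9, 20.3 and 26.9 CPM. Of 16 core components of the pathway none was called in either direction by limma at 2-fold, with 2 passing the adjusted p upward and 8 downward. Among them Ctnnb1, beta-catenin, was at 501, 502 and 487 CPM and 416, 412 and 400.0 CPM.

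Of 8 hedgehog targets, Gli1 and Hhip were called lower, at -1.61 ± 0.15 and -1.14 ± 0.14, and none was called higher. Of 13 retinoic acid genes, 2 were called lower. Cyp26b1, which degrades retinoic acid, went from 136, 142 and 140.1 CPM to 29.3, 24.6 and 29.1 CPM, and Crabp1, a cellular carrier of retinoic acid, changed by -1.28 ± 0.049. Of 13 genes of the insulin-like growth factor axis, Igfbp3, a binding protein, fell from 945, 935 and 922 CPM to 379, 384 and 374 CPM. Pappa, a protease of such binding proteins, was at 88.0, 85.1 and 89.4 CPM and then 43.3, 46.0 and 40.4 CPM and lay at the 2-fold limit. It lost its call without day 5 replicate 1, day 5 replicate 3 or day 8 replicate 3 (-0.999, -0.99 and -0.96), and with GC content and length trends removed (-0.88).

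Other genes of proliferation did not fall. Of 26 cell cycle genes none was called in either direction by limma at 2-fold, while 17 passed the adjusted p upward and none downward, with a median of 0.26. Mki67, a marker of cycling cells, was at 185, 175 and 181 CPM and 209, 222 and 202 CPM. Cdkn2c, a CDK4 and CDK6 inhibitor, rose by 1.28 ± 0.062. The same test called none of 14 p53 targets, 18 chromatin enzymes (histone deacetylases, DNA methyltransferases and others), 15 matrix proteases or 20 ribosomal protein genes. Of the ribosomal protein genes, 14 passed the adjusted p downward. Over all genes tested, 6.61% were called in either direction, 25.6% passed the adjusted p upward and 23.9% downward. In lists this small, few or no calls therefore cannot tell the members from genes at large. Trib3 was the only call among 15 genes of the unfolded protein and stress responses, and Cat, catalase, among 18 of the NRF2 and antioxidant list, both upward. Cat stood at 0.93 and was not called with GC content and length trends removed. Tfrc, the transferrin receptor, was the only call among 13 housekeeping genes, at 1.66 ± 0.090.

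Skeletal muscle genes split. Myod1, a factor that starts muscle formation, fell from 16.2, 17.0 and 15.6 CPM to 1.96, 1.75 and 2.82 CPM. Myog, a factor that acts after it, fell from 48.0, 47.2 and 46.9 CPM to 9.57, 8.16 and 7.25 CPM. The days were far apart in both. Actc1, a striated muscle actin, changed by -1.56 ± 0.049. Tnnc2, Ckm and Myl1, genes of the mature muscle fibre, rose by 1.49 ± 0.10, 1.48 ± 0.16 and 1.24 ± 0.058. So 3 of 11 tested members were called in each direction, and Acta1, the adult muscle actin, overlapped between days at 91.3, 101 and 93.4 CPM and 123, 93.2 and 139 CPM.

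The defining photoreceptor factors stayed near the bottom of the range on both days. Nrl was at 0.0411, 0.0823 and 0.331 CPM and 0.182, 0.232 and 0.0507 CPM. Crx, which acts with Nrl on rod genes, was at 0.324, 0.346 and 0.608 CPM and 0.993, 0.438 and 0.456 CPM. Otx2, which acts before both, was at 0, 0.0304 and 0.188 CPM and 0, 0.183 and 0.101 CPM. None of these reached the level needed for a test, and their days overlapped. Of 12 photoreceptor transcription factors only 5 were tested, of 24 rod phototransduction genes 7 and of 10 cone genes 1. The only call among these was Rxrg, a retinoid receptor of cones that other tissues also express, at 1.67 ± 0.11. Nr2e3 was below 0.6 CPM in all 6 libraries. Abca4, a retinoid transporter of the outer segment, was at 9.84, 4.71 and 8.25 CPM and 9.67, 12.5 and 12.5 CPM, days that overlapped. Its log2 change of 0.59 ± 0.21 passed the adjusted p (0.0451) but not the 2-fold limit. Without day 5 replicate 2 it did not pass (0.32, adjusted p = 0.11). Of the 7 rod genes tested, 1 passed the adjusted p upward and 1 downward. Sag was at 1.37, 1.71 and 1.79 CPM and 2.14, 1.96 and 2.13 CPM and did not pass (adjusted p = 0.141). The labels' name of photoreceptor intermediates is therefore not matched by the defining photoreceptor factors in these libraries at either day.

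Of the Notch receptor genes, Notch3 fell from 44.2, 51.1 and 43.1 CPM to 14.4, 11.6 and 15.9 CPM. Of 11 neuronal genes, Gap43, a growth cone protein, and Map2, a dendritic microtubule protein, were called lower, at -1.76 ± 0.084 and -1.19 ± 0.13, and none was called higher. Of 10 Müller glia markers, Car2, Glul and Aqp4 were called higher. Aqp4 lost its call without day 5 replicate 1, day 5 replicate 2 or day 8 replicate 3 (0.994, 0.998 and 0.935). Glul, glutamine synthetase, which fat cells and other tissues also use, went from 201, 209 and 195 CPM to 612, 606 and 647 CPM.

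Of other cell types that the sort could hold, macrophages, endothelium, epithelium and Schwann cells had low defining markers. The skeletal muscle gene Acta1 and fat cell genes such as Fabp4, given above, were not low. Macrophage markers summed to 67.0 to 75.7 CPM at day 5 and 154 to 167 CPM at day 8. Of 11 tested, 8 passed the adjusted p upward and only Lyz2, lysozyme, was called, from 47.2, 45.1 and 49.6 CPM to 118, 126 and 112 CPM. The defining gene Ptprc was below 1 CPM in all 6 libraries. Csf1r was at 1.74, 1.36 and 1.77 CPM and 3.69, 3.22 and 3.57 CPM, and Adgre1 at 1.56, 1.79 and 1.48 CPM and 3.41, 4.45 and 3.03 CPM. These macrophage values were higher at day 8, as were the called acute phase and MHC genes, and their part in those changes was not tested. Endothelial markers summed to 38.4 to 41.4 CPM and then 17.8 to 18.8 CPM, with Flt1, Cdh5 and Tek called lower and Pecam1 below 0.6 CPM. Of 8 epithelial genes listed only Krt19 was tested, and it was called lower. Epcam, Cdh1 and Sox10, the last a marker of Schwann cells, were below 1 CPM in all 6 libraries. Of 5 tested cartilage and bone genes, Col2a1 and Col9a1 were called lower and Alpl higher.

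Levels in the MEF and in the CiPC of day 11 place these values, without a test of their own. Ucp1 had a mean of 0.0278 CPM in MEF and 0.259 CPM in CiPC, Adipoq of 0 and 0.0300 CPM, Plin1 of 0.0410 and 0.0683 CPM, and Saa3 of 3.26 and 14.9 CPM. For these 4 genes the day 8 libraries were therefore higher than every MEF and CiPC library. Tnc was at 5979.5 CPM in MEF and 907 CPM in CiPC, and Acta2 at 6741 and 2029 CPM, so both were lowest at day 8 among the 4 groups. Ccnd1 was also lowest at day 8, with 296 CPM in MEF and 843 CPM in CiPC. Col12a1 was lowest in CiPC, at 18.3 CPM. Nrl, Crx and Otx2 stood at 30.7, 93.0 and 74.1 CPM in CiPC.

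**Figure D5:**
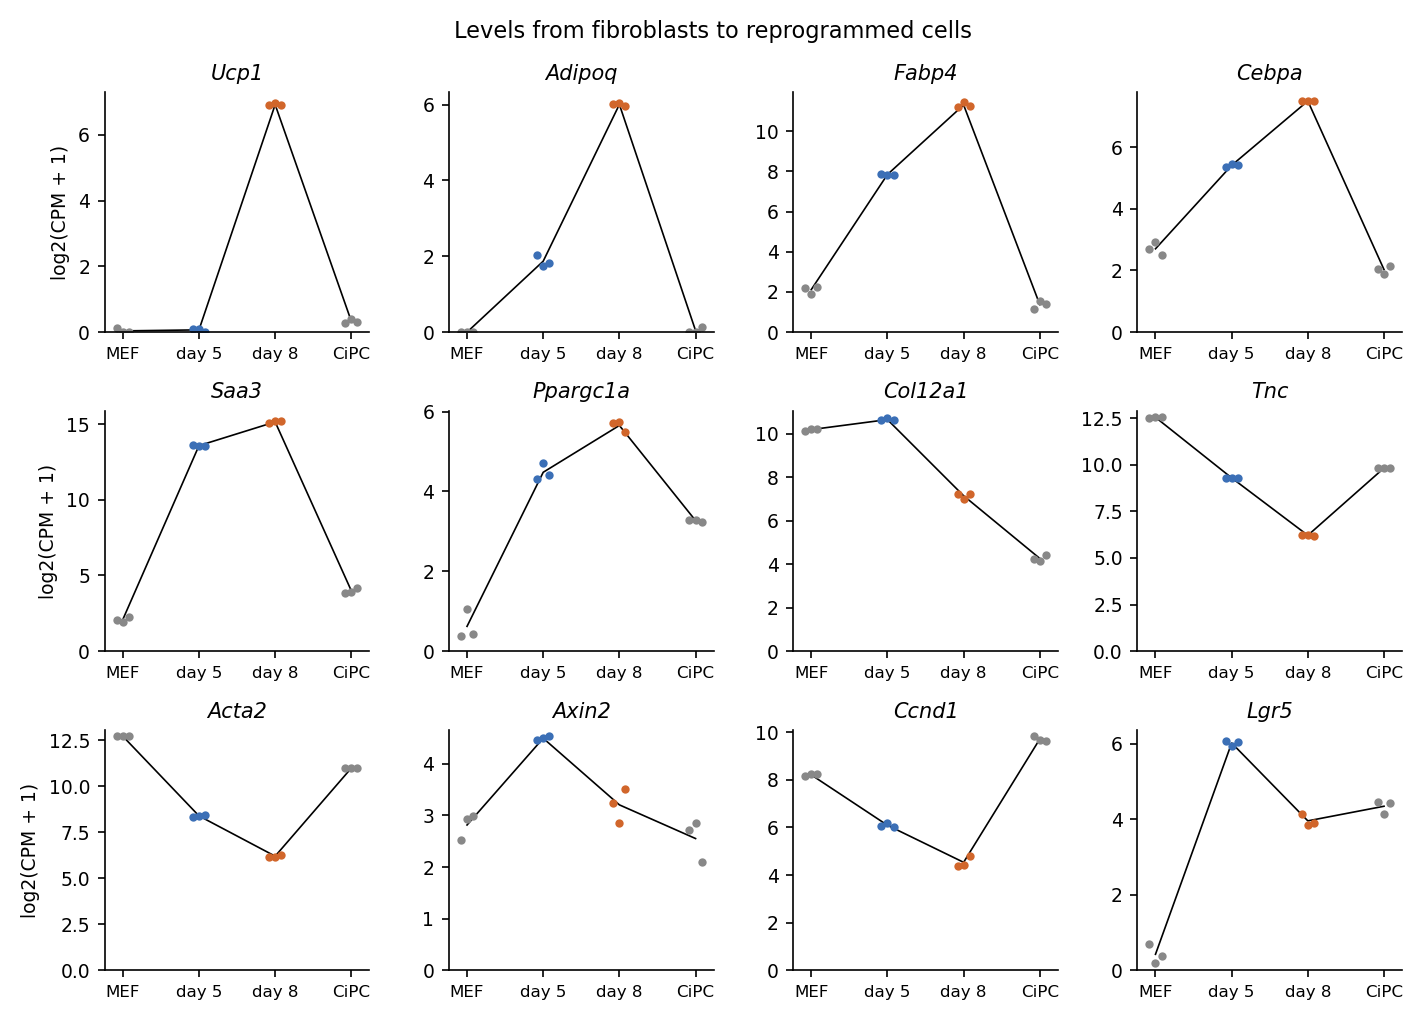
Each point is 1 library's log2(CPM + 1) for 12 genes, with 3 libraries each of MEF, day 5, day 8 and CiPC and a line through the group means. Ucp1, Adipoq, Fabp4, Cebpa, Saa3 and Ppargc1a are highest at day 8, Tnc, Acta2 and Ccnd1 are lowest at day 8, and Axin2 and Lgr5 are highest at day 5.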

How the data were processed

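The deposited table holds signal values that the authors gave as CPM for each gene. Per the submitters' processing notes reads were quantified with kallisto (version, annotation and scaling: not given in the sources used here). The totals of the columns are unequal, and low values show no steps of whole reads, so depth is unknown and no count model was used. Columns were matched to samples by name. Genes with at least 1 CPM in at least 3 of the 6 libraries were fitted with limma 3.58.1 (R 4.3.3; linear model per day, moderated variance with a mean trend) on log2(CPM + 1), with Benjamini-Hochberg adjustment over 13259 genes. The fit was tested on simulated data. Positions are from GENCODE M21 on GRCm38 (99.12% of genes matched by ID without version) and promoters from RefSeq on GRCm38.p6. Library shares were compared with two-sided exact permutation tests.

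Named genes were 7 anchor genes, the 12 that rose most, the 12 that fell most, and members of each list. Those that rose or fell most were taken among genes called with a mean of at least 10 CPM on either day. Their libraries also had to show no overlap between the days, and predicted genes and pseudogenes were left out. Per list, up to 5 called members with the largest change were named, and members called against the list's direction. Where none was called, up to 2 members were named. Defining cell type markers were named as well. Dio2, Prdm16, Ebf2, Adrb3, Me1, Myl1 and Angptl4 fall outside this rule and were chosen after their values were seen. The members and the 43 lists were chosen with earlier results of these data known, and 7 further lists after the data were seen. Alternatives covered the pseudocount, the filter, the scaling, the variance model, the samples fitted, a replicate block, GC content and length, the call rule, and each library left out in turn. Some genes are not reported here.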

Additional observations from a re-analysis of the deposited data

How the results depend on the processing

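The counts of genes called higher and lower stayed within 1.5 times of 478 and 399 under every alternative run except 3. With a pseudocount of 0.1 CPM 601 genes were called lower, while the 590 called higher stayed within that range. With the adjusted p alone 3400 and 3175 genes passed, and at a fold of at least 4, 111 and 33. Among the alternatives within that range, a pseudocount of 0.5 CPM gave 536 higher and 510 lower, and leaving out 1 library gave 474 to 486 higher and 385 to 445 lower. Same-numbered libraries' deviations from their day's mean correlated at -0.00849, -0.241 and -0.0839, and a fit with the replicate block called 478 higher and 401 lower. With 3 libraries per day, and day 8 libraries that differed along GC content, these correlations cannot decide whether the replicate numbers pair the samples. Removing trends with GC content and length gave 442 and 367, and the scaling without mitochondrial genes and Saa3, chosen after the data were seen, 460 and 421. Such totals do not show whether the same genes were called. Of the 877 calls, 735 were kept with the GC content and length trends removed and 705 with a filter of at least 5 CPM. Leaving out 1 library kept 810 to 849.

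Most of the 150 named genes were picked for a large change in these data, so keeping the call was largely built into their choice. Of 2540 values of these genes under the alternatives none reversed, 2508 stayed on their side of the call, 31 lost it and 1 gained it. The cause was not tested. These belonged to 15 genes: Aqp4, Runx1, Ltbp2, Saa3, Oas1a, Bst2, Nlrc5, Slc16a3, Uqcrfs1, Cyc1, mt-Nd3, Pappa, Cat and Sucla2, which lost the 2-fold limit, and S100b, which gained it at a pseudocount of 0.1 CPM (1.07). Removing the GC content and length trends gave 0.74 for mt-Nd3, -0.82 for Ltbp2, 0.93 for Cat and 0.90 for Sucla2. Quantile normalisation gave 0.76 for Saa3. Medians of the photoreceptor factor, retinal progenitor, proneural, cyclic AMP target, Schwann, cartilage and adrenergic lists changed sign or reached 0 under at least 1 alternative. With 3 libraries per day and unknown depth, changes of genes below about 1 CPM, the photoreceptor factors among them, were not detectable here.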

Other observations

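Some abundant genes outside the lists also differed between days. They were chosen after their values were seen. Thbs1, thrombospondin 1, a matrix protein that activates TGF-beta, was at 2368, 2357 and 2406 CPM in the day 5 libraries and 476, 491 and 494 CPM in the day 8 libraries, a log2 change of -2.29 ± 0.041. Its mean in MEF was 14399.6 CPM. Ptn, the growth factor pleiotrophin, fell from 839.8, 850.3 and 834 CPM to 317, 313 and 331 CPM, and Il6st, the shared receptor subunit of the interleukin 6 family, from 735, 733 and 766 CPM to 342, 347 and 344 CPM. Car3, a carbonic anhydrase abundant in fat and muscle, rose from 201, 201 and 198 CPM to 832, 875 and 847 CPM, and Fabp5, a fatty acid carrier, by 1.10 ± 0.052. In none of these 5 genes did the libraries of the days overlap.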
